A study of Arabidopsis thaliana with 4 samples.

Results

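Described here are 36 Arabidopsis genes that were low in hda6 and WT seedlings and passed a level threshold in ldl1/2 seedlings. They were chosen from measured values. A gene was taken if the larger of both group means was at least 1 RPKM (reads per kb of exon per M mapped reads) in the authors' deposited table of ldl1/2 against WT, below 0.5 RPKM in their table of hda6 against WT, and if it lay on chromosomes 1 to 5. Each table lists 34262 genes, of which 33940 lie on these chromosomes, and 4549 of those were below 0.5 RPKM in the hda6 table with a fold change given. Because the ldl1/2 and hda6 tables chose the genes, their values are a description and no test. The levels in the samples labelled hda6/ldl1/2 were not used in the choice, but all 3 tables share the same WT.

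The samples were RNA-seq libraries (paired, 150 nt) of whole seedlings harvested at 14 days of age from long days and 22 °C. All genotypes are in the Col-0 ecotype: ldl1/2, hda6/ldl1/2, hda6, and WT. No source used here names the alleles. GEO lists 1 sample for each genotype, yet the deposited means resolved into whole reads of 2 libraries for each mutant (42.6 and 40.2 M reads for ldl1/2, 49.4 and 43.8 for hda6/ldl1/2, 47.5 and 47.3 for hda6) and 3 for WT (51.6, 50.4 and 48.6). Whether these are separate plants is not given, so the deposited p-values may measure a technical spread. A table prints only the larger of its group means, so a smaller mean was rebuilt from the fold change and then has no value per library. Below, "past the deposited FDR" means an FDR under 0.05 in the authors' deposited table.

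HDA6 is a histone deacetylase, an enzyme that takes acetyl groups off histone tails and is known in Arabidopsis for silencing transposons and repeats. LDL1 and LDL2 are relatives of the animal demethylase LSD1, which takes methyl groups off the lysine of histone H3 that marks active genes. In Arabidopsis, HDA6 and these demethylases are known to bind each other and to share target genes.

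The name first given to the group, genes activated in ldl1/2 only, went against the data. Of the 36 genes 10 (27.8%, against 1.23% of the 4549 low genes) were also at 1 RPKM or more in the samples labelled hda6/ldl1/2. The 36 are therefore called by their rule, as genes low in hda6 and WT and at least 1 RPKM in ldl1/2. The low genes were not matched to the 36 in WT level, so the 2 shares are not like for like. Only 2947 of the other low genes reached 0.05 RPKM in ldl1/2 or hda6/ldl1/2. A gene nearer 0.5 RPKM needs a smaller rise to reach 1 RPKM. Over the 36, the group means ran from 1.02 to 7.23 RPKM in ldl1/2 with a median of 1.45. They ran from 0 to 7.09 with a median of 0.495 in hda6/ldl1/2, from 0 to 0.497 with a median of 0.318 in hda6, and from 0 to 0.498 with a median of 0.324 in WT.

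The 250 bases upstream of the annotated start are shown for the 4 genes highest in ldl1/2 and for NUDT24, which was added after its values were seen because few reads of it were counted in WT. They were read from the RefSeq TAIR10.1 genome, 5′ to 3′ on the gene's strand. Capitals mark matches on either strand to 5 short motifs: the evening element (AAAATATCT or AGATATTTT), the CCA1-binding site (AAAAATCT or AGATTTTT), the G-box (CACGTG), the RY core (CATGCA or TGCATG) and a TATA motif (TATAAA or TTTATA). Matches of one motif on both strands can overlap, as in the TATA match nearest the start of AT1G35183 and the RY match of PER10. The windows are chr1:12882404-12882653 (+) for AT1G35183, chr5:26789746-26789995 (-) for AT5G67120, chr2:19266457-19266706 (-) for PAP14_1, chr1:18346708-18346957 (+) for PER10 and chr5:6566021-6566270 (+) for NUDT24. The far end of the PAP14_1 window lies inside AT2G46890, a gene 208 bp upstream on the same strand.
AT1G35183: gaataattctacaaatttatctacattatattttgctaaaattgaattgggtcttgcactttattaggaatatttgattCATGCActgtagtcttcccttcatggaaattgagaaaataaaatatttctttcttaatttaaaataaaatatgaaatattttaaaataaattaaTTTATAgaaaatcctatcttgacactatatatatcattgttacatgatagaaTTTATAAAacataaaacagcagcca
AT5G67120: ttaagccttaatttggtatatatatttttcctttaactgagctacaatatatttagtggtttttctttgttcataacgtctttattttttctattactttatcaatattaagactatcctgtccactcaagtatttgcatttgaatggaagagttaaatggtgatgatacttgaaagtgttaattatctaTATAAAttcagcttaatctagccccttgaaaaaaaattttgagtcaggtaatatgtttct
PAP14_1: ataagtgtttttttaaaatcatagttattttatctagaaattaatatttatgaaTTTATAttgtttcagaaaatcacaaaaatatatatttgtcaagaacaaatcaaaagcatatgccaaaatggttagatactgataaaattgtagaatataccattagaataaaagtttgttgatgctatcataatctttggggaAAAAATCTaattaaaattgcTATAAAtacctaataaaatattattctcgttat
PER10: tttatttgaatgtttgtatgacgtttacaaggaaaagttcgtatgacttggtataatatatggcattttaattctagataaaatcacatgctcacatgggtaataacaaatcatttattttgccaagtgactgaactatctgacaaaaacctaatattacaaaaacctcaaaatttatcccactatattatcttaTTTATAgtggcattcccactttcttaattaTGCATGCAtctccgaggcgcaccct
NUDT24: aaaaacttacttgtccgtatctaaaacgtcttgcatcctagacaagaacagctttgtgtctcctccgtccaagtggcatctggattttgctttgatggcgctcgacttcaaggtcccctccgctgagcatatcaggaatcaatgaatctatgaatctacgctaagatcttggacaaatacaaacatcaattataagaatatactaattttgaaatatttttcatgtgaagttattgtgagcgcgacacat

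Over all 36 promoters, the evening element was present in 3 (8.33%; AT5G52330, AT3G61118 and AT4G13800), against 2.41% of 24729 promoters of the same length. The RY core was in 6 (16.7%, against 8.33%), the TATA motif in 20 (55.6%, against 46.6%), the CCA1-binding site in 1 (2.78%, PAP14_1, against 6.59%) and the G-box in 0 (0%, against 6.92%). Each of these shares differs from its background by a few genes, and no test was run on them. A match describes letters and is not a binding site.

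In the samples labelled hda6/ldl1/2 the 36 genes spread from full ldl1/2 levels down to 0. Their group mean was at least 1 RPKM for these 10 genes. It was 0.5 to 1 RPKM for 8 and under 0.5 RPKM for 18. Past the FDR of the authors' deposited table, 10 of the 36 rose in hda6/ldl1/2 (27.8%), against 8.61% of all 24905 genes with a fold change and 6.13% of the 4549 low genes. None fell past the FDR (0 of 36, against 6.4% of all genes). At an unadjusted p-value under 0.05 by the authors' unnamed test 19 were higher (against 15% of all genes) and 1 was lower, AT5G37970 (against 12.2%). A log2 fold change of at least 1 was listed for 18 (against 9.85%) and one of -1 or less for 2, AT5G37970 and HIPP12 (against 6.25%). The median log2 fold change over the 36 in the authors' deposited table of hda6/ldl1/2 was 1.02, against 0.02 over all genes. A low WT value helps a gene meet the rule and raises every fold change against WT, so these counts are not independent of the choice. The rule also held WT under 0.5 RPKM, so the low counts downward are no result. Only the FDR rise is set beside the low genes here, and these were not matched to the 36 in WT level. The other shares are over all genes. The difference between hda6/ldl1/2 and ldl1/2 was not tested. Because the genes were taken by a high ldl1/2 mean, the choice itself favours lower means in hda6/ldl1/2.

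**Figure D1:**
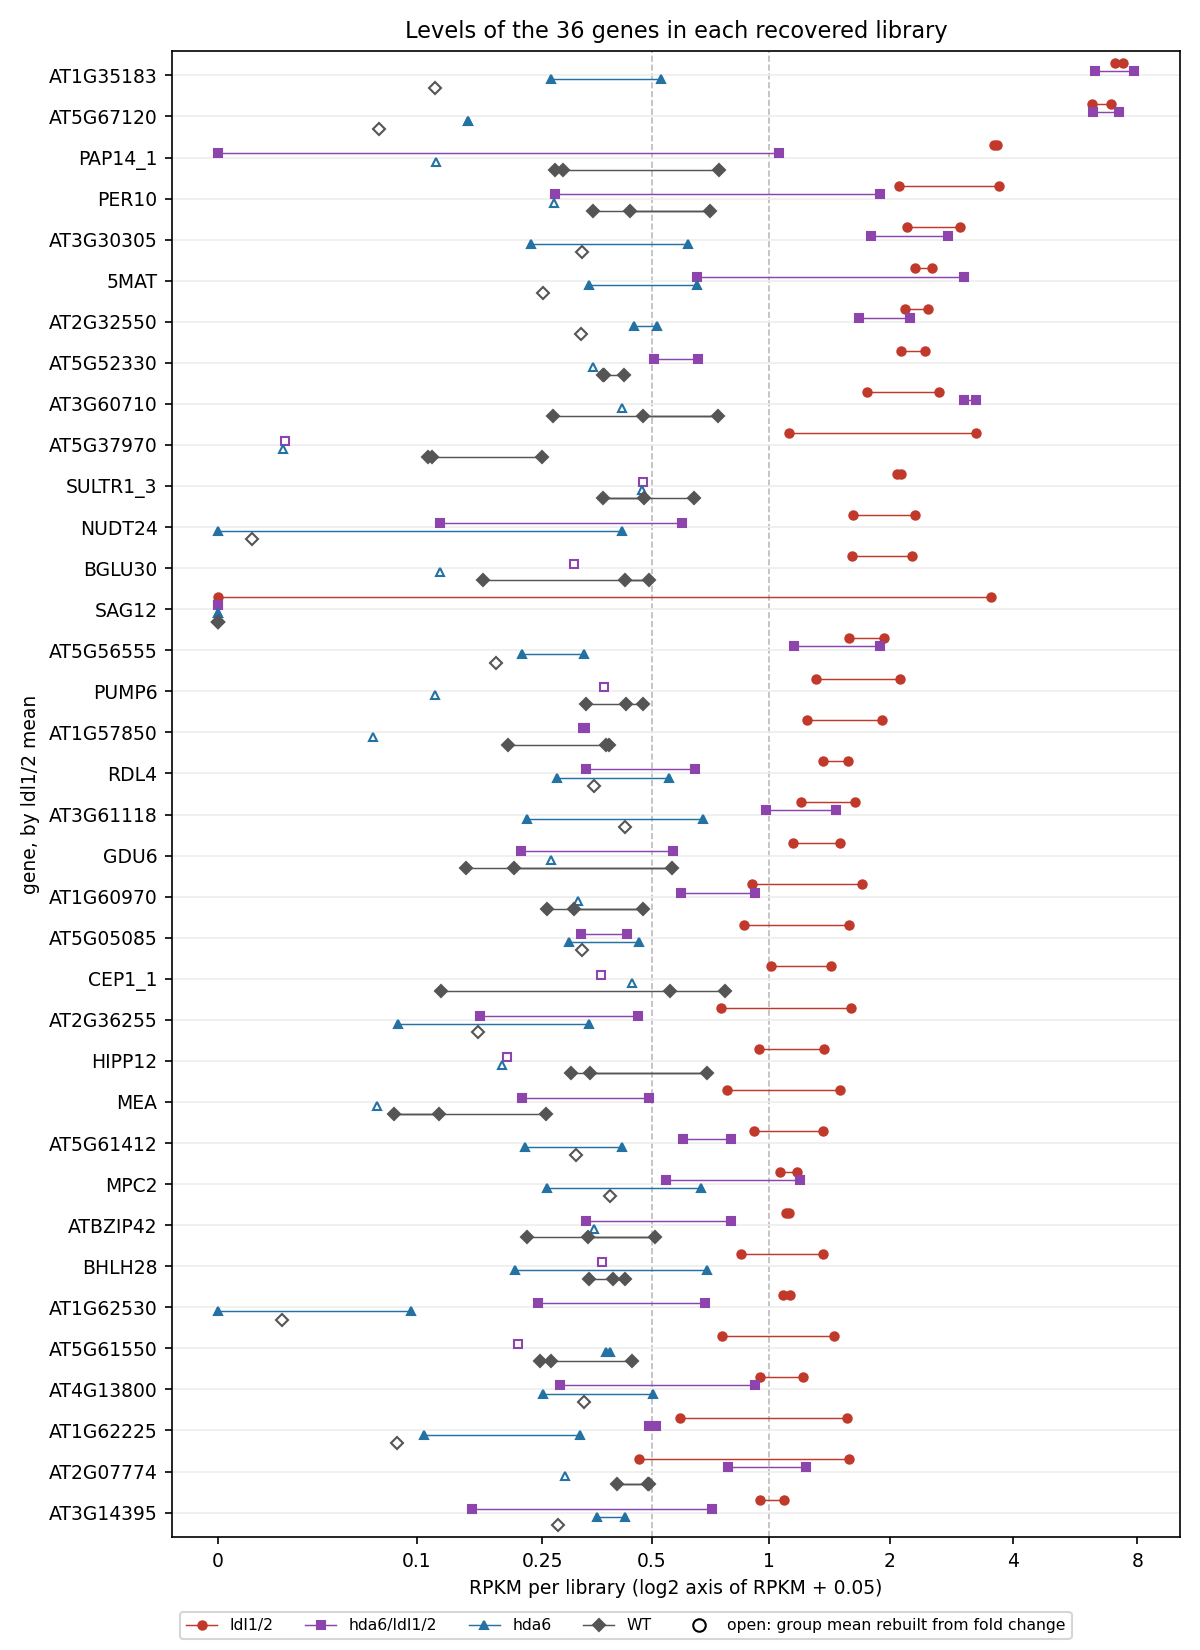
Level of each of the 36 genes in each library, in RPKM on a log2 axis of RPKM + 0.05, ordered by the ldl1/2 mean. Filled symbols are libraries joined by a line within a group, open symbols are group means rebuilt from a fold change, and dashed lines stand at 0.5 and 1 RPKM. The ldl1/2 symbols lie right of the hda6 and WT symbols for all genes but SAG12 and AT2G07774, while the hda6/ldl1/2 symbols lie on either side.

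The highest pair, AT1G35183 and AT5G67120, had similar levels in both of these mutants, ldl1/2 and hda6/ldl1/2. AT1G35183 (chr1:12882654-12884762) encodes a RING finger protein, a type often found in ubiquitin ligases. It had 7.07 and 7.38 RPKM in the ldl1/2 libraries (192 and 189 reads), 6.33 and 7.85 RPKM in the hda6/ldl1/2 libraries, and 0.529 and 0.265 RPKM in the hda6 libraries, against a rebuilt WT mean of 0.116 RPKM (about 11.1 reads over 3 libraries). The libraries of ldl1/2 lay within the range of those of hda6/ldl1/2, and both hda6 libraries were far below. In hda6/ldl1/2 it rose with a log2 fold change of 6.03 and an FDR listed as 0 in the authors' deposited table. AT5G67120 (chr5:26787809-26789745), annotated in the RING/U-box superfamily, had 6.2 and 6.92 RPKM in ldl1/2, 7.21 and 6.25 RPKM in hda6/ldl1/2 and 0.149 and 0.150 RPKM in hda6, against a rebuilt 0.0715 RPKM in WT. Its ldl1/2 and hda6/ldl1/2 libraries overlapped. In hda6/ldl1/2 AT5G67120 rose with a log2 fold change of 6.65 and an FDR listed as 0 in the authors' deposited table.

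A further 4 genes rose in hda6/ldl1/2 past the FDR and reached 1 RPKM in both of its libraries. AT3G60710, an F-box family gene, had 2.63 and 1.76 RPKM in ldl1/2, 3.24 and 3.04 RPKM in hda6/ldl1/2, and a rebuilt 0.416 RPKM in hda6, against 0.473, 0.742 and 0.268 RPKM in WT. Both of its hda6/ldl1/2 libraries exceeded both ldl1/2 libraries, and with AT5G67120 it was 1 of 2 genes with a higher mean in hda6/ldl1/2 than in ldl1/2. Its log2 fold change in hda6/ldl1/2 was 2.79 (FDR 2.19e-11) in the authors' deposited table. AT2G32550, annotated as Rcd1-like, had 2.18 and 2.48 RPKM in ldl1/2, 2.24 and 1.68 RPKM in hda6/ldl1/2 and 0.517 and 0.449 RPKM in hda6, against a rebuilt 0.323 RPKM in WT. The ldl1/2 and hda6/ldl1/2 libraries overlapped, at a log2 fold change of 2.72 in hda6/ldl1/2 (FDR 1.26e-12) in the authors' deposited table. AT3G30305, an uncharacterized gene, had 2.97 and 2.20 RPKM in ldl1/2, 2.78 and 1.79 RPKM in hda6/ldl1/2 and 0.232 and 0.622 RPKM in hda6, against a rebuilt 0.323 RPKM in WT. It rose in hda6/ldl1/2 by a log2 fold change of 2.93 (FDR 2.17e-08) in the authors' deposited table. AT5G56555, also uncharacterized and with only 193 nt of exon, reached 1.58 and 1.93 RPKM in ldl1/2 on 13 and 15 reads, and 1.15 and 1.89 RPKM in hda6/ldl1/2 on 11 and 16 reads, against a rebuilt 0.182 RPKM in WT. Its FDR in hda6/ldl1/2 was 0.0136 in the authors' deposited table.

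5MAT encodes the malonyltransferase that adds a malonyl group to anthocyanin pigments. It had 2.53 and 2.30 RPKM in ldl1/2, 3.04 and 0.656 RPKM in hda6/ldl1/2 and 0.339 and 0.655 RPKM in hda6, against a rebuilt 0.251 RPKM in WT. The second hda6/ldl1/2 library was at the level of the higher hda6 library, and the first was above both ldl1/2 libraries. The log2 fold change in hda6/ldl1/2 was 2.97 (FDR 2.39e-06) in the authors' deposited table. Other enzymes of anthocyanin synthesis were looked at too. DFR had group means of 11.6 RPKM in ldl1/2, 7.61 in hda6/ldl1/2 and 2.21 in hda6, against 0.783 in WT, and rose past the FDR in each of the authors' deposited tables. LDOX and the glucosyltransferase UGT75C1 rose past the FDR in all 3 of the authors' deposited tables too, with log2 fold changes in hda6/ldl1/2 of 3.30 and 1.86. These 3 genes were above the rule's bound of 0.5 RPKM in the hda6 table, and were chosen after 5MAT had been seen.

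NUDT24, AT1G62530 and AT1G62225 also rose in hda6/ldl1/2 past the FDR but stayed under 1 RPKM there. NUDT24 encodes a nudix hydrolase, a family that cleaves nucleoside diphosphates linked to other groups. It had 1.62 and 2.31 RPKM in ldl1/2 (105 and 141 reads), 0.600 and 0.120 RPKM in hda6/ldl1/2 (45 and 8 reads) and 0 and 0.418 RPKM in hda6 (0 and 30 reads), against a rebuilt 0.0104 RPKM in WT, about 2.4 reads over 3 libraries. All 30 hda6 reads came from 1 library. For a counting interval (exact Poisson, 95%) the WT reads were rounded to 2. From this, NUDT24 was 62.2-fold to 1860-fold higher in ldl1/2 and 11.4-fold to 340-fold higher in hda6/ldl1/2. These ranges leave out the rebuilding error of WT and the spread between mutant libraries. The FDR in hda6/ldl1/2 was 0.000211 in the authors' deposited table. AT1G62530, of the DUF863 family, had 1.13 and 1.09 RPKM in ldl1/2, 0.244 and 0.687 RPKM in hda6/ldl1/2 and 0 and 0.0953 RPKM in hda6, against a rebuilt 0.0212 RPKM in WT (about 4.2 reads). Its FDR in hda6/ldl1/2 was 2.75e-05 in the authors' deposited table. AT1G62225, uncharacterized, had 0.593 and 1.57 RPKM in ldl1/2, 0.511 and 0.490 RPKM in hda6/ldl1/2 and 0.106 and 0.320 RPKM in hda6, against a rebuilt 0.0846 RPKM in WT. Its FDR in hda6/ldl1/2 was 0.0293 in the authors' deposited table.

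Conversely, PER10, the non-coding RNA gene AT3G61118 and AT2G07774 reached 1 RPKM in hda6/ldl1/2 without passing the FDR. PER10 encodes a class of secreted peroxidase that acts in cell walls. It had 3.70 and 2.11 RPKM in ldl1/2 and 1.89 and 0.272 RPKM in hda6/ldl1/2, against 0.347, 0.710 and 0.437 RPKM in WT. The lower hda6/ldl1/2 library was below all WT libraries and the higher one above them. AT3G61118 had 1.64 and 1.20 RPKM in ldl1/2, 1.47 and 0.982 RPKM in hda6/ldl1/2 and 0.226 and 0.682 RPKM in hda6, against a rebuilt 0.424 RPKM in WT, on 16 to 27 reads per library in the first 2 groups. AT2G07774, uncharacterized and with all its exons copied in the mitochondrial genome, had 1.59 and 0.463 RPKM in ldl1/2 and 0.788 and 1.24 RPKM in hda6/ldl1/2, against 0.492, 0.403 and 0.488 RPKM in WT, so that 1 ldl1/2 library lay among those of WT. The FDR in hda6/ldl1/2 was 0.128 for PER10, 0.121 for AT3G61118 and 0.238 for AT2G07774 in the authors' deposited table.

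**Figure D2:**
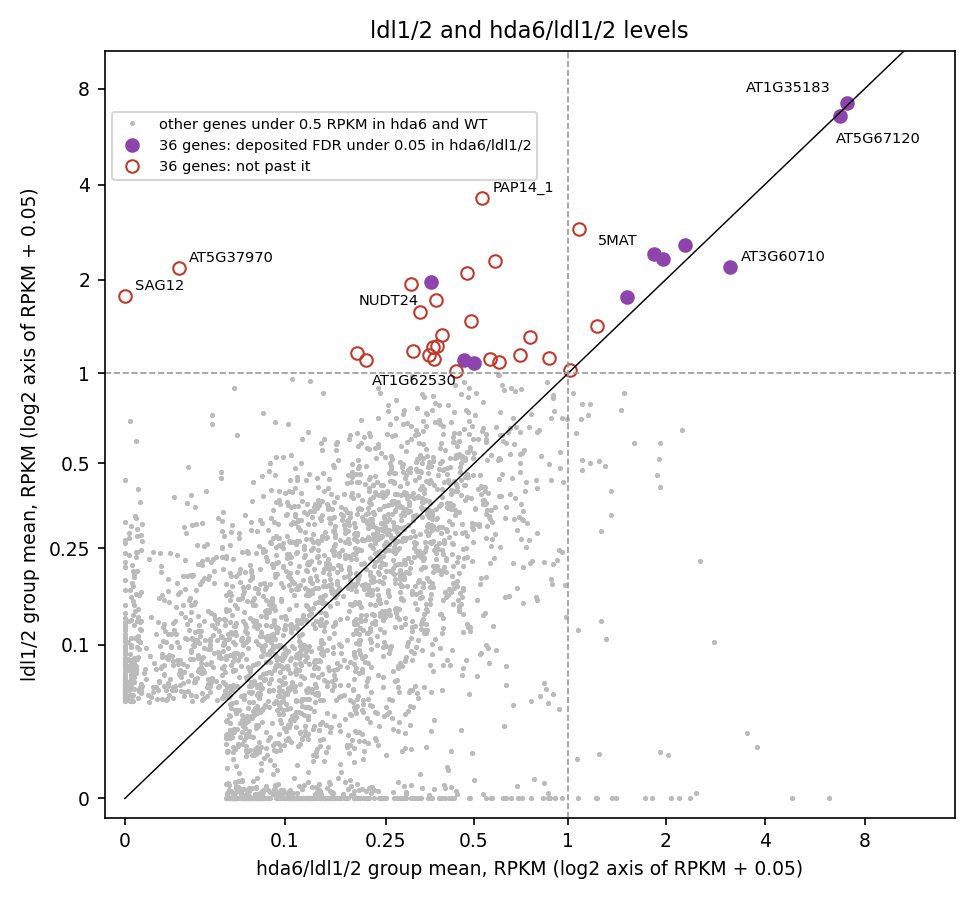
Group means in ldl1/2 (vertical) and hda6/ldl1/2 (horizontal), in RPKM on log2 axes of RPKM + 0.05. Grey points are 2947 other genes below 0.5 RPKM in the hda6 table with at least 0.05 RPKM in either mutant, dashed lines stand at 1 RPKM, and the diagonal marks equal levels. Filled points are the 10 genes past the deposited FDR in hda6/ldl1/2, of which 7 lie right of 1 RPKM.

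The other 23 genes neither reached 1 RPKM nor passed the FDR in hda6/ldl1/2. A mean there at or below that of WT was found for 9 of the 36, and the same share over the low genes was not counted. PAP14_1 encodes purple acid phosphatase 14, of a family that releases phosphate from organic esters. It was the third highest gene in ldl1/2, with 3.59 and 3.66 RPKM (254 and 244 reads). In hda6/ldl1/2 it had 1.06 and 0 RPKM (87 and 0 reads), against 0.747, 0.287 and 0.273 RPKM in WT. The ldl1/2 libraries were close to each other, and the hda6/ldl1/2 libraries lay above and below all WT libraries, with an FDR of 1 in the authors' deposited table.

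AT5G37970 is annotated as a methyltransferase that uses S-adenosyl methionine. It had 1.12 and 3.24 RPKM in ldl1/2, against 0.249, 0.109 and 0.113 RPKM in WT. The rebuilt means were 0.0225 RPKM in hda6/ldl1/2 (about 2.3 reads) and 0.0215 RPKM in hda6 (about 2.2 reads), both under every WT library. The log2 fold changes of -2.71 in hda6/ldl1/2 (FDR 0.118) and -2.83 in hda6 (FDR 0.159) did not pass the FDR in the authors' deposited tables. SULTR1_3 is the tables' name for AT4G08620, which the reference annotates as sulfate transporter 1;1, a root uptake carrier for sulfate. It had 2.08 and 2.13 RPKM in ldl1/2 and rebuilt means of 0.473 RPKM in hda6/ldl1/2 and 0.471 RPKM in hda6, against 0.476, 0.370 and 0.646 RPKM in WT. Its mean was thus above WT in ldl1/2 and inside the WT range in both other mutants. The related root carrier SULTR1;2, chosen after this was seen, had group means of 30.8 RPKM in ldl1/2, 13.7 in hda6/ldl1/2 and 10.3 in hda6, against 13.6 in WT. SULTR1;2 rose in ldl1/2 (log2 fold change 1.15, FDR listed as 0), did not pass the FDR in hda6/ldl1/2 (0.10, FDR 0.872) and fell in hda6 (-0.36, FDR 0.0376) in the authors' deposited tables. Summed over 7 root markers, levels were 71.4 RPKM in ldl1/2, 31.1 in hda6/ldl1/2 and 59.0 in hda6, against 65.3 in WT, with 0 of the markers at 0. The part of root content in these values was not tested, and fewer root cells and less RNA per cell cannot be told apart in whole seedlings.

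BGLU30 and SAG12 are known from ageing or darkened leaves, BGLU30 as a beta-glucosidase induced in the dark and SAG12 as a cysteine protease of senescence. BGLU30 had 1.61 and 2.27 RPKM in ldl1/2 and rebuilt means of 0.307 RPKM in hda6/ldl1/2 and 0.120 RPKM in hda6, against 0.166, 0.493 and 0.423 RPKM in WT. All 186 SAG12 reads of the series came from 1 ldl1/2 library (3.54 RPKM). The other ldl1/2 library and all libraries of hda6/ldl1/2, hda6 and WT had 0, so the ldl1/2 mean was at least 116-fold higher than the level of 3 reads summed over all WT libraries. DIN6 and SEN1, which are also dark-induced, went the other way in ldl1/2. DIN6 (1.25 RPKM in ldl1/2, against 2.23 in WT) and SEN1 (3.07 RPKM in ldl1/2, against 8.06 in WT) fell there past the FDR in the authors' deposited table, with log2 fold changes of -0.87 and -1.43. SEN1 rose in hda6/ldl1/2 (0.86, FDR 1.22e-05) and DIN6 did not pass the FDR there (0.39, FDR 0.402) in the authors' deposited table. In hda6, where BGLU30 was below its WT mean without passing the FDR, DIN6 (0.85, FDR 0.00876) and SEN1 (0.77, FDR 0.000244) both rose in the authors' deposited table. Both were chosen after BGLU30 and SAG12 had been seen.

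PUMP6, a mitochondrial dicarboxylate carrier, had 2.12 and 1.32 RPKM in ldl1/2 and rebuilt means of 0.372 RPKM in hda6/ldl1/2 and 0.116 RPKM in hda6, against 0.475, 0.426 and 0.331 RPKM in WT. MEA encodes MEDEA, a Polycomb histone methyltransferase known for its imprinted action in the endosperm of the seed. It had 1.51 and 0.783 RPKM in ldl1/2 (155 and 76 reads) and 0.218 and 0.492 RPKM in hda6/ldl1/2, against 0.257, 0.0822 and 0.119 RPKM in WT. Both ldl1/2 libraries of MEA were above all WT libraries, and the hda6/ldl1/2 libraries overlapped the WT range. The FDR of MEA in hda6/ldl1/2 was 0.0858 in the authors' deposited table. Summed over 12 seed markers, levels were 0.791 RPKM in ldl1/2, 1.66 in hda6/ldl1/2 and 0.768 in hda6, against 0.206 in WT, with 6 markers at 0 in ldl1/2, 4 in hda6/ldl1/2 and 6 in hda6, against 6 in WT. The sums rest largely on FUS3, the 1 seed marker past the FDR, at 0.492 RPKM in ldl1/2, 1.30 in hda6/ldl1/2 and 0.461 in hda6, against 0.0262 in WT. Without it the other 11 summed to 0.299 RPKM in ldl1/2, 0.360 in hda6/ldl1/2 and 0.307 in hda6, against 0.179 in WT. The part of seed markers in the level of MEA was not tested. AT5G52330, of the TRAF-like superfamily, had 2.13 and 2.44 RPKM in ldl1/2 and 0.659 and 0.507 RPKM in hda6/ldl1/2, against 0.420, 0.369 and 0.372 RPKM in WT. Its hda6/ldl1/2 libraries lay between those of ldl1/2 and WT without touching either, but the FDR was 0.222 in the authors' deposited table.

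Among regulators and signalling genes, AT1G57850, a gene for a TIR domain protein of the kind found in plant immune receptors, had 1.92 and 1.24 RPKM in ldl1/2 and 0.331 and 0.326 RPKM in hda6/ldl1/2, against 0.198, 0.385 and 0.378 RPKM in WT. AT5G61550, for a kinase with a U-box, had 0.759 and 1.45 RPKM in ldl1/2 and a rebuilt 0.212 RPKM in hda6/ldl1/2, against 0.266, 0.246 and 0.444 RPKM in WT. Both were within or under the WT range in hda6/ldl1/2. ATBZIP42, a bZIP transcription factor, had 1.12 and 1.1 RPKM in ldl1/2 and 0.331 and 0.80 RPKM in hda6/ldl1/2, against 0.226, 0.510 and 0.337 RPKM in WT. BHLH28, for the calcium-binding transcription factor NIG1, had 0.851 and 1.37 RPKM in ldl1/2 and a rebuilt 0.368 RPKM in hda6/ldl1/2, against 0.394, 0.425 and 0.339 RPKM in WT. CEP1_1, which encodes a precursor of a small secreted signalling peptide, had 1.43 and 1.01 RPKM in ldl1/2 and a rebuilt 0.365 RPKM in hda6/ldl1/2, against 0.121, 0.558 and 0.772 RPKM in WT. None of these 5 passed the FDR in hda6/ldl1/2 in the authors' deposited table.

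Besides SULTR1_3 and PUMP6, keywords in product names put GDU6, HIPP12 and AT4G13800 in the transporter class. GDU6, of a family named for glutamine export, had 1.5 and 1.15 RPKM in ldl1/2 and 0.216 and 0.569 RPKM in hda6/ldl1/2, against 0.207, 0.565 and 0.147 RPKM in WT. HIPP12, annotated in a copper transport family, had 1.37 and 0.947 RPKM in ldl1/2 and a rebuilt 0.196 RPKM in hda6/ldl1/2, against 0.340, 0.697 and 0.301 RPKM in WT. AT4G13800, for a magnesium transporter of the NIPA type, had 0.950 and 1.22 RPKM in ldl1/2, 0.923 and 0.282 RPKM in hda6/ldl1/2 and 0.251 and 0.504 RPKM in hda6, against a rebuilt 0.329 RPKM in WT. By the authors' deposited table none passed the FDR in hda6/ldl1/2, where GDU6 overlapped WT.

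The remaining 7 genes (RDL4 for a papain-type protease, AT1G60970 of the SNARE-like superfamily, AT2G36255 for a defensin-like peptide, MPC2 of the mitochondrial pyruvate carrier family, and the uncharacterized AT5G05085, AT5G61412 and AT3G14395) had ldl1/2 means of 1.02 to 1.47 RPKM. In hda6/ldl1/2 their means were 0.312 RPKM (AT2G36255) to 0.872 RPKM (MPC2), and their WT means were 0.161 RPKM (AT2G36255) to 0.386 RPKM (MPC2). None of the 7 passed the FDR in hda6/ldl1/2 in the authors' deposited table.

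The ldl1/2 and hda6 tables chose the genes, and their counts are given as a description. By the rule no gene could be lower in ldl1/2 than in WT, and both WT and hda6 had to be under 0.5 RPKM. The rule therefore shapes the hda6 counts in either direction, and the shares beside them are over all genes and not the low genes. In ldl1/2, 26 of the 36 were past the deposited FDR (against 3.75% of all genes), and 0 were so downward (against 3.2%). At an unadjusted p-value under 0.05, 34 were higher (against 8.76%) and 0 lower (against 7.21%). All 36 had a log2 fold change of at least 1 in the authors' deposited table (against 6.39%) and 0 one of -1 or less (against 5.3%), with a median of 2.19. The 10 that missed the FDR were AT3G61118, GDU6, CEP1_1, AT2G36255, HIPP12, MPC2, ATBZIP42, BHLH28, AT2G07774 and AT3G14395. In hda6, AT1G35183 (FDR 0.0492) and NUDT24 (FDR 0.00644) were past the FDR upward in the authors' deposited table (2 of 36, against 4.05%) and 0 downward (against 3.58%). At an unadjusted p-value under 0.05, 2 were higher in hda6 (against 9.28%) and 5 lower (against 8.31%). The authors' deposited table for hda6 listed a log2 fold change of at least 1 for 6 (against 7.38%) and of -1 or less for 7 (against 5.89%). Those at -1 or less were PAP14_1, AT5G37970, BGLU30, PUMP6, AT1G57850, HIPP12 and MEA.

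Of the 36, 23 were at 1 RPKM or more in both ldl1/2 libraries and 13 in 1 only, and 31 differed by at most 2-fold between libraries (on RPKM + 0.05, as for all differences between libraries here). The absolute log2 difference between the ldl1/2 libraries had a median of 0.482 over the 36, against 0.202 over the 4474 genes of 1 to 8 RPKM. With a median of 1.45 RPKM, the 36 lie toward the low end of that range. SAG12 (6.17), AT2G07774 (1.68) and AT5G37970 (1.49) were beyond the 99th percentile of those genes, 1.37. Only GNA1 and AT5G64572 also reached 8-fold among the 4474. In ldl1/2 17 of the 36 were higher in the first library and 19 in the second.

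In hda6/ldl1/2 the libraries could be read for 28 genes. Of these, 6 were at 1 RPKM or more in both libraries, 6 in 1 and 16 in neither, and 16 differed by at most 2-fold between libraries. Among the 10 members with a mean of at least 1 RPKM, PER10 (2.59) and 5MAT (2.13) were beyond the 99th percentile of the log2 difference in hda6/ldl1/2, 1.74 over 2589 genes of 1 to 8 RPKM. Lower members were not set against that range, and PAP14_1 (4.48), NUDT24 (1.93) and AT3G14395 (1.91) also differed by more. Over all 28, 18 were higher in the library of 49.4 M reads. Of the 12 that differed by more than 2-fold, PAP14_1, PER10, 5MAT, NUDT24, AT3G14395 and AT4G13800 were higher in that library. The other 6 (AT1G62530, AT2G36255, GDU6, ATBZIP42, MPC2 and MEA) were higher in the library of 43.8 M reads, by smaller factors, as the plot of library pairs shows.

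**Figure D3:**
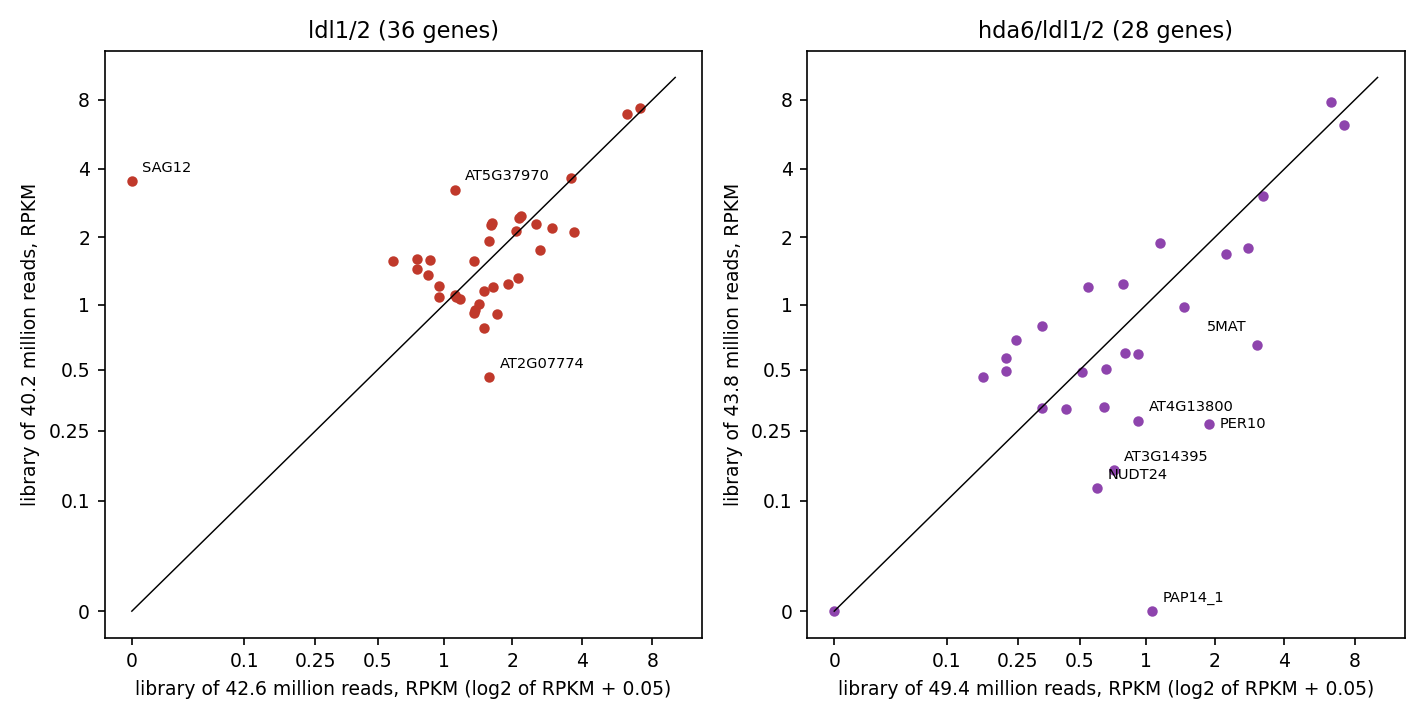
Levels in the first (horizontal) and second (vertical) library of ldl1/2 (left, 36 genes) and hda6/ldl1/2 (right, the 28 genes with recovered libraries), in RPKM on log2 axes of RPKM + 0.05, with the line of equal levels. Named genes lie farthest from the line. SAG12 had 0 and 3.54 RPKM in ldl1/2, and PAP14_1 had 1.06 and 0 RPKM in hda6/ldl1/2.

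By annotation 35 of the 36 are protein-coding and 1 is a non-coding RNA gene. Their median exon length was 1230 nt and their median number of exon blocks 3, against 1552 nt and 4 over 27443 protein-coding genes. The products fell into no main class. Hypothetical or uncharacterized products made up 9 genes (25%, against 17.6% of the 4549 low genes), and transporters 5 (13.9%, against 2.24%). By the wording of their product names, the 9 took in AT1G62530 of the DUF863 family and MPC2, a pyruvate carrier that the transporter count leaves out. The keywords for transcription factors, which include any zinc finger, took in 3 (AT1G35183, ATBZIP42 and BHLH28; 8.33%, against 6.38%), and 1 F-box gene (2.78%, against 4.26%). Transposon-related, cytochrome P450, seed storage and terpene synthase products numbered 0, against 0.638%, 1.45%, 1.38% and 0.33%. Classes were assigned by keywords in the product names, and the transporter keywords were widened after the products of the 36 had been seen, so their share is no finding of its own.

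The 36 genes were spread over the genome, with 8, 4, 8, 4 and 12 on chromosomes 1 to 5. No 2 lay within 10 kb of each other, and the closest, AT5G61412 and AT5G61550, were 60.7 kb apart. Distance was measured from the 1 Mb window with the fewest protein-coding genes on each chromosome, which marks a gene-poor stretch and not a mapped centromere. Within 3 Mb of it lay 10 of the 36 (27.8%), against 17.7% of all genes and 20.9% of the low genes. AT3G30305, 5MAT, ATBZIP42 and GDU6 lay 0.85 to 1.80 Mb from it on chromosome 3, on the same side. Of the 10 genes with at least 1 RPKM in hda6/ldl1/2, AT1G35183, AT3G30305, 5MAT and AT2G07774 lay within 3 Mb. The same share among other low genes at that level was not counted, and reads of AT2G07774 may come from its mitochondrial copy.

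**Figure D4:**
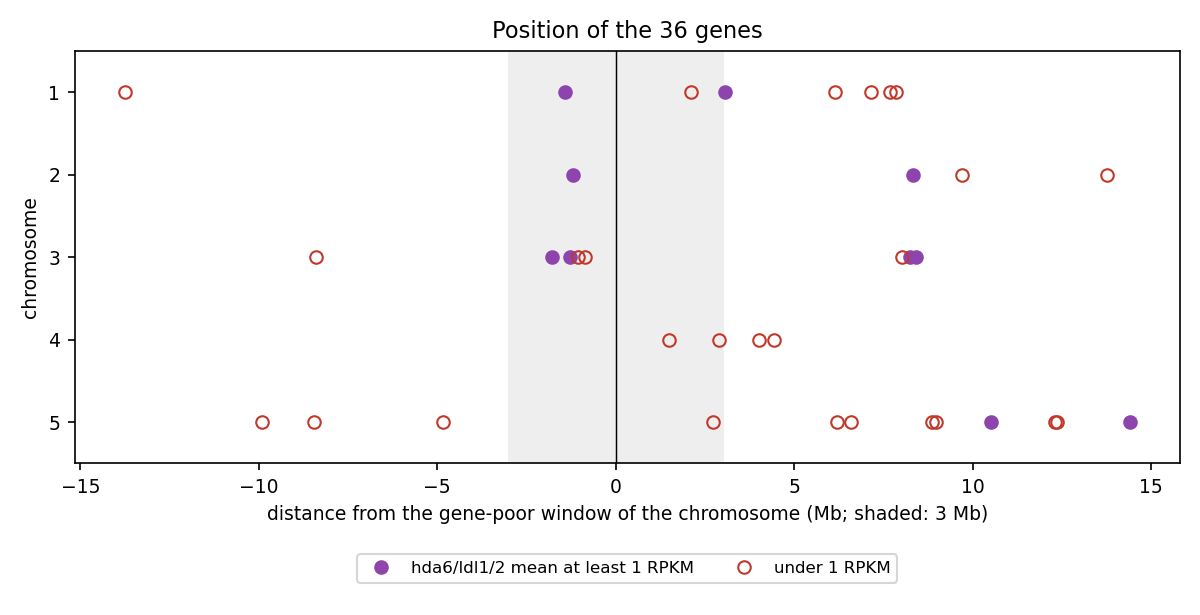
Distance of each of the 36 genes from the gene-poor 1 Mb window of its chromosome, in Mb, by chromosome. Filled points are genes with at least 1 RPKM in hda6/ldl1/2, open points the others, and the shading marks 3 Mb. The genes lie at all distances up to 14.39 Mb, with 4 together on chromosome 3.

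A measure added after the positions were seen was the distance from the mutated genes. AT1G62530 (116.1 kb), AT1G62225 (274.1 kb) and AT1G60970 (815.0 kb) lay within 1 Mb of LDL1, and AT3G14395 (329.1 kb) lay within 1 Mb of LDL2. Together they make 11.1% of the 36, against 4.42% of the low genes. AT5G61550 (563.6 kb) and AT5G61412 (628.1 kb) lay within 1 Mb of HDA6, 5.56% against 1.56%. AT1G62530 and AT1G62225 are 2 of the 3 genes that rose in hda6/ldl1/2 at under 1 RPKM.

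The nearest expressed genes on both sides (72 positions) were past the FDR in ldl1/2 about as often as other genes. By the authors' deposited table, ldl1/2 had 4 that rose (5.56%, against 4.38% of the 18886 genes of at least 1 RPKM) and 2 that fell (2.78%, against 4.1%). AT5G37980, next to AT5G37970, rose in ldl1/2 by a log2 fold change of 2.20 (FDR 2.17e-11) in the authors' deposited table, at 5.53 RPKM in ldl1/2 and 1.17 in WT. AT5G09480, next to PUMP6, rose by 0.88 (FDR 1.04e-06), and OXS3, next to AT5G56555, fell by 1.5 (FDR 3.63e-12) in the authors' deposited table.

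Reads of some of the 36 could come from elsewhere. The library kit does not mark strand, so strand cannot separate the reads of overlapping genes. AT5G05085 overlaps AT5G05090 on the opposite strand over 1263 bp, and AT5G05090 had 7.66 RPKM in ldl1/2 and 6.35 in hda6/ldl1/2, against 7.20 in WT. AT5G05085 itself had 1.22 RPKM in ldl1/2 and 0.376 in hda6/ldl1/2, against a rebuilt 0.324 in WT, so its deposited levels were unlike those of AT5G05090. AT4G13800 overlaps RLP47 over 219 bp, with RLP47 at 6.63 RPKM in ldl1/2 and 7.25 in hda6/ldl1/2, against 5.86 in WT. AT3G14395 lies 5 bp from UBP25, and AT5G61412 lies 393 bp from RPE, which had 396 RPKM in ldl1/2 and 416 in WT. All exon bases of AT2G07774 (100%) have a copy of at least 95% identity in the mitochondrial genome, and 17.8% of those of AT4G13800 have one on chromosome 4. Their reads are therefore uncertain.

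The rule's bounds cut through a continuous range. Just inside the ldl1/2 bound in the authors' deposited table were AT3G14395 (1.02 RPKM), AT2G07774 (1.03) and AT1G62225 (1.08), and just outside were PHO1-H10 (0.989), AT2G38823 (0.988) and AT1G66960 (0.979). Just inside the hda6 bound in the authors' deposited table were PER10 (0.498), SULTR1_3 (0.497) and 5MAT (0.497). Just outside it were AT1G73325 (0.501), AT2G03130 (0.512) and AT1G20691 (0.513). AT1G73325 had 2.51 RPKM in hda6/ldl1/2.

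The targeted genes check the labels in part. LDL1 had 2.88 RPKM in ldl1/2, 4.73 in hda6/ldl1/2 and 4.93 in hda6, against 4.86 in WT, and LDL2 had 0.649 RPKM in ldl1/2, 1.07 in hda6/ldl1/2 and 1.46 in hda6, against 1.43 in WT. In the authors' deposited table both fell in ldl1/2, LDL1 by 0.79 (FDR 2.52e-05) and LDL2 by 1.17 (FDR 0.000182) on the log2 scale. In the samples labelled hda6/ldl1/2 neither passed the FDR, and HDA6 rose there (log2 fold change 0.59, FDR 1.03e-05) and in hda6 (0.53, FDR 0.000179) in the authors' deposited tables. Every direction above in hda6/ldl1/2 or hda6 therefore rests on the labels. Summed over 5 shoot markers, levels were 14000 RPKM in ldl1/2, 18600 in hda6/ldl1/2 and 18500 in hda6, against 16300 in WT. RBCS1A and CAB1 made up most of this. LHCB1.1, LHCB2.1, LHCB3 and CAB1 fell in ldl1/2 and rose in both other mutants past the FDR in the authors' deposited tables, and RBCS1A passed it in none. LHCB3 had 301 RPKM in ldl1/2, 799 in hda6/ldl1/2 and 763 in hda6, against 413 in WT. Over 8 flower markers the summed levels were 13.5 RPKM in ldl1/2, 18.1 in hda6/ldl1/2 and 15.5 in hda6, against 16.1 in WT, with 0 of the markers at 0. SEP3 made up most of this, and the other 7 summed to 5.43 RPKM in ldl1/2, 4.16 in hda6/ldl1/2 and 3.09 in hda6, against 3.76 in WT. In ldl1/2, SEP3 fell (log2 fold change -0.64, FDR 0.0132) and SEP1 rose (1.27, FDR 0.00411) in the authors' deposited table. Over 5 pollen markers the sums were 0.878 RPKM in ldl1/2, 0.491 in hda6/ldl1/2 and 0.596 in hda6, against 0.603 in WT, with VGD1, VGDH1 and PRK2 at 0 in every group.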

How the data were processed

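Total RNA was sequenced by the submitters on 1 listed sample per genotype, and Bowtie and TAIR10 are the tool and build in the submitters' processing notes. The authors deposited 3 tables, each of 1 mutant against WT. Per the file headers, each of the deposited tables holds the larger group mean, the log2 fold change and its signed linear form, with p-value, FDR and Bonferroni value. The headers do not name the unit of the deposited means, which was read as RPKM from their whole-read steps. Of the 34262 genes, 9357 have no fold change, and 24905 have one. The signed linear form is a score that the authors deposited, and like the Bonferroni value it was not used. No source used here names the authors' test.

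Positions were looked up in the TAIR10.1 annotation (33349 matched, and all 19519 comparable locus names were the same). Each mean times exon length was resolved into whole reads per library with a tolerance of 1e-07 reads. Tested on simulated data, this recovered 200 of 200 genes in each group. The simulation used the same library totals and exon lengths, so it does not test those. Of the deposited means of 1 to 8 RPKM, 98.63% in ldl1/2 and 95.11% in hda6/ldl1/2 resolved uniquely where the mutant mean was the larger. A smaller mean was rebuilt from the log2 fold change and the offset the table gives genes at 0 in both groups. Rebuilding known WT means under 0.5 RPKM gave a median absolute log2 error of 0.00798 in the ldl1/2 table (182 genes), 0.0346 in that of hda6/ldl1/2 (165) and 0.0163 in that of hda6 (163). Rebuilt mutant means, and WT means as low as that of NUDT24, were not checked. No SD or n is given for the authors' means, and intervals and floors cover counting error only. Copies were searched with BLAST 2.17.0 (95% identity over 150 nt), and other steps used Python 3.11.15, pandas 2.3.3 and scipy 1.17.1.

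The members, gene lists and keywords were chosen with earlier results of these data known. Named genes were to be the 12 highest in ldl1/2, the 6 highest and 6 lowest in hda6/ldl1/2, up to 3 per product class, and the 3 nearest each bound. This named 28 of the 36. RDL4, AT1G60970, CEP1_1, MEA, AT5G61412, MPC2, AT1G62530, AT4G13800 and all flanking or pathway genes were named after their values were seen. Alternatives were other bounds, thresholds, pseudocounts and distances.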

Additional observations from a re-analysis of the deposited data

How the results depend on the processing

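The choice of bounds decided the size of the group and its counts in hda6/ldl1/2. With a bound of 2 RPKM in ldl1/2, 11 genes remained, of which 7 were at 1 RPKM or more in hda6/ldl1/2, 6 were past the deposited FDR, 7 had a log2 fold change of at least 1 (median 2.72) and 5 lay near the gene-poor window. With a bound of 0.25 RPKM in hda6, 8 genes remained, and the same counts were 1, 4, 6 (median 2.01) and 1. In both cases 0 lay within 10 kb of another, and of the genes near LDL1 or LDL2, 0 and 2 remained. A level of 0.5 RPKM in hda6/ldl1/2 gave 18 genes in place of 10, and a log2 fold change of at least 2 gave 10 in place of 18. With a pseudocount of 1 RPKM, 7 genes had a log2 fold change of at least 1 and the median was 0.22, and with 0.1 RPKM these were 12 and 0.69. An FDR under 0.01 gave 8 genes, and adjusting over genes with a fold change gave 10. Setting WT to 3 reads where it had fewer gave a median of 1.06. A distance of 5 Mb gave 14 genes and one of 50 kb 0. Added after seeing the data, the ldl1/2 library of 42.6 M reads alone gave 45 genes (28 of the 36) and that of 40.2 M reads 47 (31 of the 36), and the hda6/ldl1/2 libraries alone gave 10 and 8 genes at 1 RPKM. SAG12 had 0 reads in the first ldl1/2 library. No paired analysis was possible because the tables hold group means and no replicate numbers.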
